A study of Mus musculus with 14 samples.

Results

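The genes described here are 38 genes of the integrated stress response, of serine, asparagine and glutamine metabolism and of amino acid transport, listed by name and found by symbol among the 41739 genes of the deposited table. They comprise 8 genes for a kinase, transcription factors and feedback factors of the stress response, 5 stress-induced effectors, 7 serine and folate-cycle enzymes, 3 genes of asparagine synthesis and transsulfuration, 5 glutamine, aminotransferase and phosphoenolpyruvate enzymes, and 10 amino acid transporters. RNA-seq was run on microglia isolated from mouse brain with magnetic beads. The mice were 8 weeks old, had received tamoxifen, and were injected once a day on 4 consecutive days into the peritoneum with PBS or with 1.0 mg/kg lipopolysaccharide (LPS), a bacterial cell wall component that activates innate immune cells. Wild type (WT) stands for Rheb F/F, and knockout (KO) for Rheb F/F; Tmem119-cre ER, in which a tamoxifen-activated Cre recombinase is driven from Tmem119, a gene of resident microglia. All animals thus carried the floxed allele of Rheb, the GTPase that activates the growth kinase complex mTORC1. Every KO and no WT sample carried Cre, so deletion of Rheb and presence of the Cre allele cannot be told apart. The 14 libraries comprise 3 of WT under PBS (WT_PBS_904, WT_PBS_913 and WT_PBS_914), 3 of KO under PBS (KO_PBS_911, KO_PBS_912 and KO_PBS_915), 4 of WT under LPS (WT_LPS_1 to WT_LPS_4) and 4 of KO under LPS (KO_LPS_1 to KO_LPS_4), and values below follow that order.

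In the integrated stress response, kinases such as GCN2 (gene Eif2ak4), which senses uncharged tRNA, phosphorylate the initiation factor eIF2, and translation of the mRNA for the transcription factor ATF4 then rises while bulk translation falls. ATF4, often paired with a C/EBP family protein, turns on genes for amino acid synthesis, amino acid import and tRNA charging, and mTORC1 is also known to raise ATF4 protein. ATF4 is controlled largely at translation, so the level of its mRNA is not a measure of its protein. In microglia, cystine import and glutathione synthesis, glutamine synthesis and large neutral amino acid exchange involve genes of the same group.

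Library depth ran from 7.99 to 32.3 M reads assigned to genes (M, 1e6), as recovered from the deposited values. All 10 microglia markers were above 0 in every library. Rheb was 29.7 to 34.5 TPM (transcripts per 1e6 transcripts, a level scaled to transcript length and library) in WT under PBS and 16.6 to 19.1 TPM in KO under PBS, and 25.1 to 33.6 TPM against 19.5 to 25.5 TPM under LPS, where 1 KO library lay above the lowest WT library. Tmem119 was lower in KO than in WT under both treatments. The study describes the mice as female, but the 6 PBS libraries held Ddx3y at 111 to 146 TPM with Xist at most at 0.147 TPM, and the 8 LPS libraries held Xist at 255 to 574 TPM with Ddx3y at most at 0.270 TPM. Treatment and sex therefore cannot be told apart in any comparison of LPS with PBS. The small RNA gene Gm23935 took 0.0566 to 0.248% of TPM under PBS and 4.04 to 15.4% under LPS, which lowers every other TPM value there. WT_PBS_914 and KO_LPS_3 held the pituitary transcript Gh at 78126 and 19672 TPM, against at most 1.90 TPM elsewhere. Where leaving 1 of them out changed a call or moved a printed difference by over 1.5 times, the value without it stands beside the result.

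ATF4 with a C/EBP partner binds the C/EBP-ATF composite element, whose core was searched as TGATGNAA on both strands in RefSeq promoter windows (GRCm38.p6, 250 bases before to 50 bases after the start). Of 33 listed genes with a window, 10 had a match (30.3%), against 1219 of 27025 genes in all (4.51%). The genes were listed as known targets, so the share describes the list and tests nothing. The matches lie in Asns, Chac1, Got1, Nupr1, Pck2, Slc1a4, Slc7a11, Slc7a7, Trib3 and Vldlr, and Aldh1l2, Cth, Slc7a5, Slc1a5 and Slc38a1 had no window in the table. The stretches below come from matched genes that were called in at least 1 comparison, and they are shown because they place genes that moved in opposite directions side by side. Slc1a4 was also called, lower with LPS in WT, but its match lies next to the start site and is not printed. Each is written 5′ to 3′ on the gene's strand, with the match in capitals. Asns lies at chr6:7693214-7693243 (minus strand), Nupr1 at chr7:126625562-126625591 (minus), Slc7a11 at chr3:50443623-50443709 (minus), Pck2 at chr14:55540133-55540200 (plus), Slc7a7 at chr14:54418048-54418115 (minus) and Vldlr at chr19:27216809-27216838 (plus).
Asns: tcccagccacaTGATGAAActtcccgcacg
Nupr1: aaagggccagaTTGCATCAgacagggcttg
Slc7a11: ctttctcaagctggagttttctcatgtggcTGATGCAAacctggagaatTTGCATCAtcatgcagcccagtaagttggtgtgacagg
Pck2: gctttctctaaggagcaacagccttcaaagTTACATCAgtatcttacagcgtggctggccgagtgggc
Slc7a7: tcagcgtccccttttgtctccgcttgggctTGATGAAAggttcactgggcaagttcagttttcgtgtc
Vldlr: agcagcaatagTTGCATCAgcgctcctagc

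Asns, Nupr1 and Slc7a11, with such a match, rose with LPS in at least 1 genotype, while Pck2, Slc7a7, Vldlr and Slc1a4, also with a match, fell in at least 1. Slc7a11 holds 2 matches in the printed stretch, and Slc7a7 holds another in an overlapping window that is not shown. Psat1, which fell in KO, had no match in its windows. A match is a string of letters and not a measured binding site.

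When both treatments were averaged, 3 enzyme genes fell in KO: Pck2, Aldh1l2 and Psat1. Tests were run with limma on log2(TPM + 1) over 18724 genes, 37 of the 38 among them, and those whose adjusted p (Benjamini-Hochberg over all genes tested) lay under 0.05 are termed called. In the average of the KO to WT differences under PBS and LPS, 3 of 37 listed genes were called, all lower (8.11%), where 0.913% of all genes tested were called lower, 3.03% higher and 3.94% in either direction. The differences of the listed genes were negative for 30 and positive for 7, with a median of -0.13 against 0.02 over all genes. Within each treatment taken alone, limma called 0 of the 37 genes. Under PBS 9 had an unadjusted p under 0.05 (15.7% of all genes did, and 1.02% of all genes were called), and the median difference was -0.16 against -0.00 over all genes. Under LPS 9 had an unadjusted p under 0.05 (11.7% of all genes did, and 0.497% of all genes were called), and the median was -0.09 against 0.07 over all genes. The limma-voom test on recovered read counts called 2 of the 37 in each treatment, Aldh1l2 and Pck2 under PBS and Psat1 and Slc7a8 under LPS, all lower in KO; that test called 1.02% and 1.63% of all genes. By TPM, 7 of the 37 genes lay lower in every KO than in every WT library under PBS (18.9%, against 10.9% of all genes tested) and 3 lay higher (8.11%, against 14.9%). Under LPS 6 lay lower (16.2%, against 1.96%) and 1 lay higher (2.7%, against 4.22%).

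**Figure D1:**
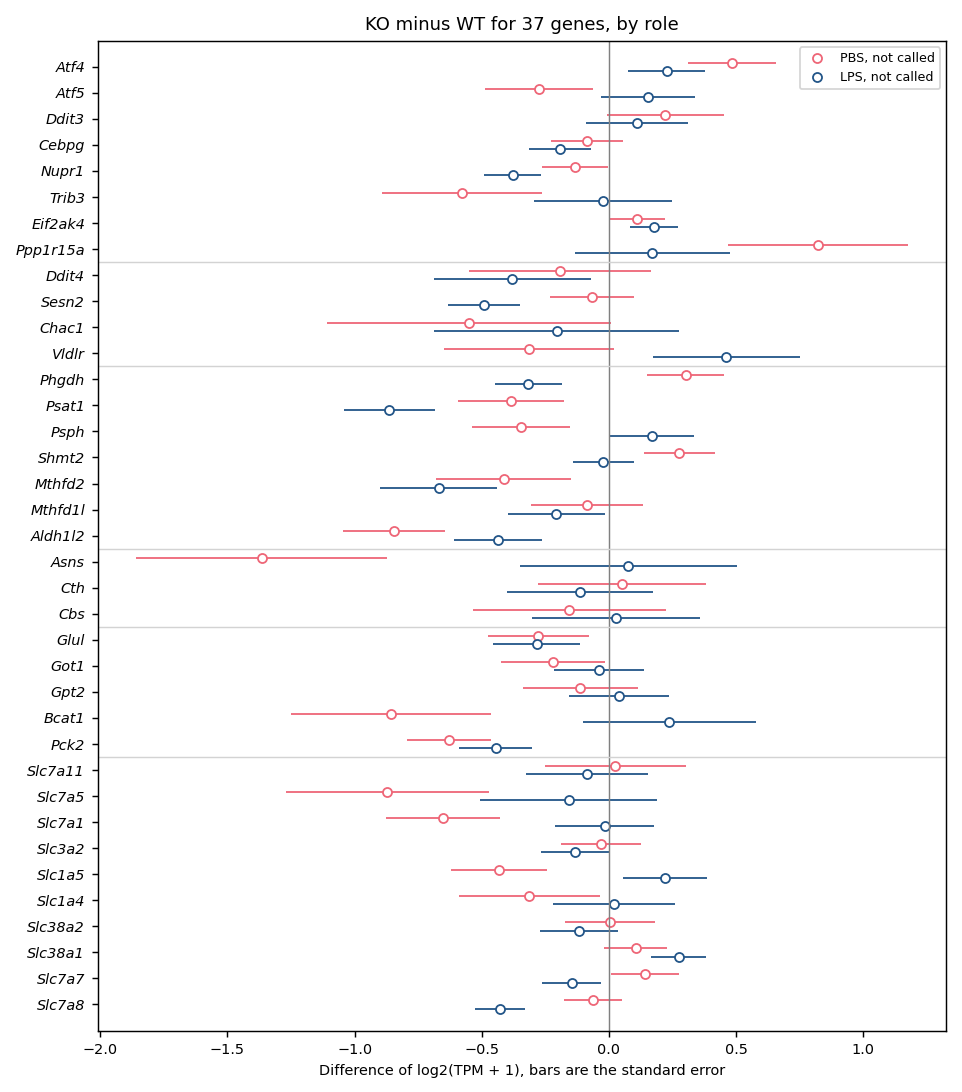
KO minus WT difference of log2(TPM + 1) with its standard error for the 37 genes tested, grouped by role, under PBS and under LPS; open points are not called. Aldh1l2, Pck2 and Psat1 lie left of 0 under both treatments, and no gene is called within a single treatment.

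Pck2 encodes the mitochondrial phosphoenolpyruvate carboxykinase. Its level was 33.2, 36.9 and 31.9 TPM in WT under PBS and 23.6, 21.8 and 19.6 TPM in KO under PBS. Under LPS it was 20.5, 17.9, 18.6 and 15.5 TPM in WT and 11.6, 9.76, 15.6 and 16.1 TPM in KO. The PBS groups did not overlap and KO stood at 63.7% of WT (-0.63, adjusted p = 0.091), whereas under LPS the 2 highest KO libraries lay just above the lowest WT library. The average difference was -0.54 ± 0.11 (SE) on the log2(TPM + 1) scale with an adjusted p of 0.0174, and without KO_PBS_915 it was -0.50 with an adjusted p of 0.052. Without KO_LPS_2, which leaves the PBS values as they are but changes the shared spread, the PBS difference of Pck2 was called (adjusted p = 0.0468).

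Aldh1l2 encodes the mitochondrial enzyme that oxidizes 10-formyltetrahydrofolate, and it was the lowest-expressed of these 3. It read 2.58, 2.18 and 1.95 TPM in WT under PBS against 0.628, 1.05 and 0.742 TPM in KO. Under LPS it read 1.2, 1.29, 1.46 and 1.33 TPM in WT against 0.634, 0.509, 0.709 and 1.05 TPM in KO. No KO library reached the lowest WT library under either treatment, and KO stood at 36.0% of WT under PBS (-0.84, adjusted p = 0.0645) and 55.0% under LPS. These values rest on 19 to 88 reads a library. The average difference was -0.64 ± 0.13 (SE; adjusted p = 0.0182), and without KO_PBS_911 it was -0.60 with an adjusted p of 0.0547. The size for Aldh1l2 depends on the pseudocount: with 0.1 in place of 1 it was -1.10 and with 5 it was -0.23, both called. On the opposite strand D10Wsu102e covers 14.1% of the exon bases of Aldh1l2, and whether counting used strand is not given in the sources used here. D10Wsu102e itself was 0.918 ± 0.174 TPM in WT and 1.01 ± 0.0803 TPM in KO under PBS (SD, n = 3 each), and 1.06 ± 0.112 TPM in WT and 1.03 ± 0.102 TPM in KO under LPS (SD, n = 4 each), with overlapping groups.

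Psat1 encodes phosphoserine aminotransferase, the middle step of serine synthesis. It measured 44.0, 53.8 and 35.7 TPM in WT under PBS and 30.6, 37.4 and 32.4 TPM in KO. Under LPS it measured 68.3, 54.6, 43.1 and 45.0 TPM in WT and 36.8, 30.7, 23.8 and 23.0 TPM in KO. The PBS groups overlapped by 1 library, while under LPS all 4 KO libraries lay below all 4 WT libraries, at 54.1% of the WT mean (-0.86, adjusted p = 0.0553; -0.99 and 0.036 without KO_LPS_1). The average difference was -0.62 ± 0.14 (SE; adjusted p = 0.0233). This call was the least steady of the 3: the adjusted p of Psat1 was 0.0693 without KO_PBS_911, 0.0606 without KO_PBS_915, 0.0517 without WT_PBS_904 and 0.0638 without WT_PBS_913. Without both pituitary-rich libraries the average differences were -0.60 for Pck2, -0.67 for Aldh1l2 and -0.66 for Psat1, with adjusted p of 0.0341, 0.0455 and 0.0443.

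**Figure D2:**
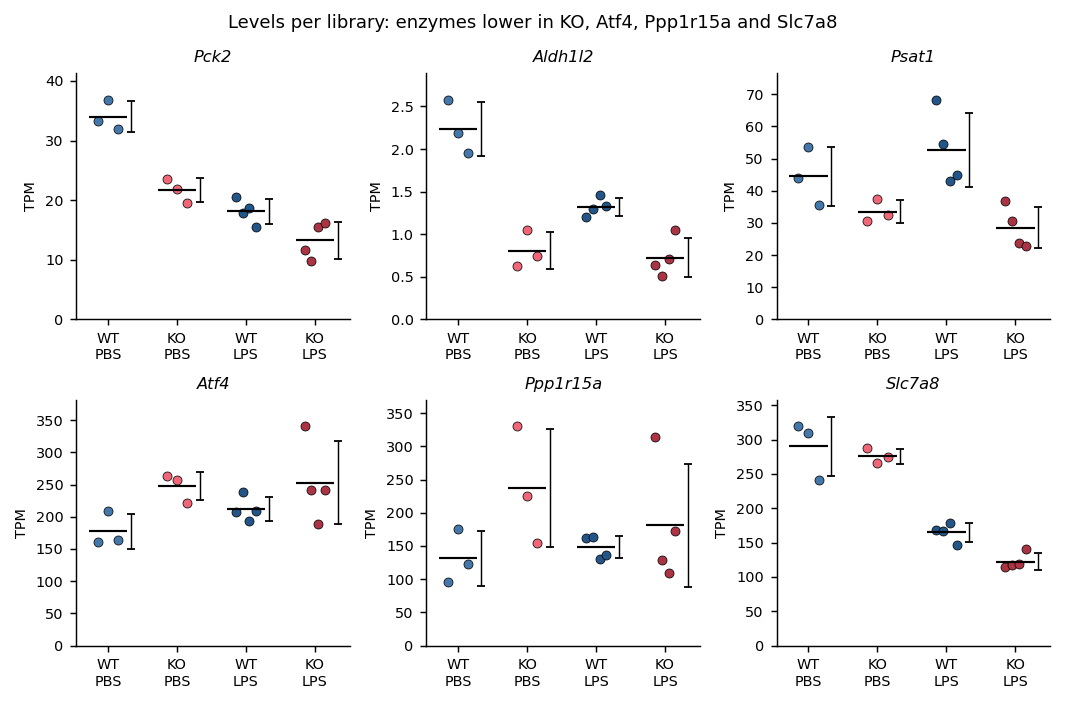
TPM in each library (points) with the group mean (line) and SD (bar) for Pck2, Aldh1l2, Psat1, Atf4, Ppp1r15a and Slc7a8 in the 4 groups. Aldh1l2 is lower in every KO library than in every WT library of the same treatment, Atf4 is higher in every KO library under PBS, and Slc7a8 is lower in every KO library under LPS.

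Of the marker sums given here, that of microglia under LPS separated the genotypes, but only with Tmem119 counted in it. Under LPS the summed level of the 10 microglia markers ran between 25786 and 29556 TPM in WT and between 18817 and 25361 TPM in KO, so it was lower in every KO library. Tmem119, whose promoter drives Cre in KO, is among these markers. Its KO libraries under LPS read 764 to 1016 TPM, against 1608 to 1872 TPM for the WT libraries. If Tmem119 is left out of the sum, KO_LPS_4 lies above WT_LPS_3 and WT_LPS_4, and the genotypes overlap. Under PBS the sum of all 10 markers overlapped, at 31502 to 41162 TPM and 36499 to 39680 TPM. The sum over endothelial and mural markers under PBS was 2750, 3864 and 1869 TPM in WT and 1231, 1250 and 2202 TPM in KO, which overlapped by 1 library, and it also overlapped under LPS. Astrocytes make serine through Phgdh and Psat1 and glutamine through Glul, and the sum over the 7 astrocyte markers overlapped between genotypes, at 340 to 513 TPM against 329 to 431 TPM under PBS and 197 to 388 TPM against 215 to 415 TPM under LPS. In bulk RNA fewer cells of a type and less RNA per cell cannot be told apart, and the part of these sums in the KO differences was not tested.

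Atf4 mRNA itself was not lower in KO. It stood at 160.2, 209 and 164 TPM in WT and at 264, 257 and 222 TPM in KO under PBS, and every KO library lay above every WT library. Under LPS it stood at 208, 238, 193 and 208 TPM in WT and at 341, 242, 188 and 241 TPM in KO, where the groups overlapped and KO_LPS_1 was the highest. The differences of 0.48 ± 0.17 (SE; adjusted p = 0.205) under PBS and 0.23 ± 0.15 (SE; adjusted p = 0.606) under LPS were not called, and the LPS difference was 0.36 without KO_LPS_3. The average over both treatments was 0.36 (adjusted p = 0.119), and 0.42 without KO_LPS_3 (adjusted p = 0.0477). Ppp1r15a, the eIF2 phosphatase subunit that ends the response, read 95.7, 176 and 123 TPM in WT and 331, 225 and 155 TPM in KO under PBS, overlapping groups with a difference of 0.82 that was not called (adjusted p = 0.29). KO_PBS_911 and KO_LPS_1, the libraries with the highest Ppp1r15a and Atf4 in their groups, also had the highest summed immediate early genes in theirs (10736 and 10397 TPM, against 6463 to 8464 TPM and 5174 to 6534 TPM in the other KO libraries), and the part of tissue dissociation in these values was not tested.

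Ddit3, the gene of the pro-apoptotic factor CHOP, read 25.7, 24.3 and 21.1 TPM in WT and 26.4, 28.8 and 27.8 TPM in KO under PBS. Under LPS it read 23.8, 19.6, 21.7 and 19.0 TPM in WT and 31.1, 22.9, 28 and 13.1 TPM in KO. The small PBS difference separated the groups, but KO under LPS held both the highest and the lowest library, and Ddit3 was called in no comparison. Trib3, a pseudokinase that represses ATF4, was 2.38, 2.12 and 2.14 TPM in WT and 0.964, 1.52 and 1.01 TPM in KO under PBS, without overlap and without a call. Atf5, a related factor, was called in no comparison and had means of 16.7 to 20.0 TPM in the 4 groups.

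With LPS, Nupr1 rose in both genotypes. This stress-induced chromatin-associated protein went from 18.0, 17.6 and 13.8 TPM to 45.1, 37.4, 49.6 and 36.6 TPM in WT, and from 14.6, 13.8 and 16.2 TPM to 32.9, 32.4, 31.0 and 31.6 TPM in KO. The groups did not overlap in either genotype, and under LPS all KO libraries lay below all WT libraries. Its differences were 1.30 ± 0.12 (SE; adjusted p = 1.45e-05) in WT and 1.06 ± 0.12 (SE; adjusted p = 5.12e-05) in KO. The KO to WT difference of Nupr1 under LPS, -0.38, was not called (adjusted p = 0.163). Cebpg, a dimer partner of ATF4, went from 106, 108 and 89.8 TPM to 80.2, 68.7, 64.2 and 67.4 TPM in WT, and from 99.7, 91.4 and 94.2 TPM to 56.4, 49.3, 64.0 and 78.2 TPM in KO. It fell without overlap in both, by -0.53 in WT (adjusted p = 0.00727) and by -0.63 in KO (adjusted p = 0.00285). Eif2ak4 fell in WT from 29.8, 31.2 and 24.2 TPM to 23.1, 24.0, 20.6 and 20.5 TPM, by -0.35 with an adjusted p of 0.0167, and its adjusted p was 0.0674 without WT_PBS_904 and 0.082 without WT_PBS_913. In KO Eif2ak4 also lay lower in every LPS than in every PBS library, with means of 25.1 and 30.5 TPM, but was not called over all libraries. Between genotypes under LPS the difference of Eif2ak4 was 0.18 (adjusted p = 0.509).

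Cell markers also moved with treatment. The microglia marker sum was lower in every LPS than in every PBS library of its genotype, by the ranges given above. The choroid plexus sum was 16443 to 21456 TPM under PBS and 2277 to 8799 TPM under LPS in WT, without overlap, and 10858 to 25840 TPM and 3951 to 14512 TPM in KO, with overlap. The monocyte and neutrophil sum was 5074 to 21319 TPM under PBS and 8543 to 20633 TPM under LPS in WT, and 4537 to 7175 TPM and 10509 to 22621 TPM in KO, where it did not overlap. Most of that sum is S100a8 and S100a9. In KO these 2 genes, Ly6c2, Ccr2 and Plac8 were higher in every LPS library, while Ngp, Camp and Ly6g overlapped between treatments. No marker of these lists was at 0 throughout a group, and their part in the LPS differences was not tested.

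Read against all genes, the LPS comparisons called the listed genes about as often as others. In WT 15 of 37 were called (40.5%), 3 higher and 12 lower, beside 42% of all genes tested (7.95% higher and 34.1% lower). In KO 15 of 37 were called (40.5%), 5 higher and 10 lower, beside 34.7% of all genes (7.82% higher and 26.9% lower). By TPM 3 genes lay higher and 12 lower in every LPS than in every PBS library of WT (8.11% and 32.4%, against 8.45% and 37.4% of all genes), and 5 lay higher and 13 lower in KO (13.5% and 35.1%, against 9.52% and 31.3%). The median difference of the 37 was -0.22 in WT and -0.28 in KO, and over all genes it was -0.28 and -0.22. That shift of all genes depends on scaling: after median-of-ratios scaling the medians over all genes were 0.01 in WT and 0.00 in KO, and the split of listed calls was 6 higher to 7 lower in WT and 5 higher to 7 lower in KO, beside 29.3% and 22.7% of all genes called. No listed gene called in either comparison changed direction under that scaling, but Cebpg, Eif2ak4, Cbs, Slc7a1 and Slc1a4 lost their call in WT and Shmt2, Slc38a1 and Slc7a7 lost theirs in KO. With voom on recovered reads Eif2ak4 was not called in WT (adjusted p = 0.0718), nor Mthfd2 and Shmt2 in KO (0.0675 and 0.225), and with Gm23935 removed Eif2ak4 and Slc7a1 were not called in WT (0.0797 and 0.0549). Atf4 (0.60), Psat1 (0.57) and Sesn2 (0.54) were called higher in WT under that scaling alone, with adjusted p of 0.017, 0.0304 and 0.0222.

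**Figure D3:**
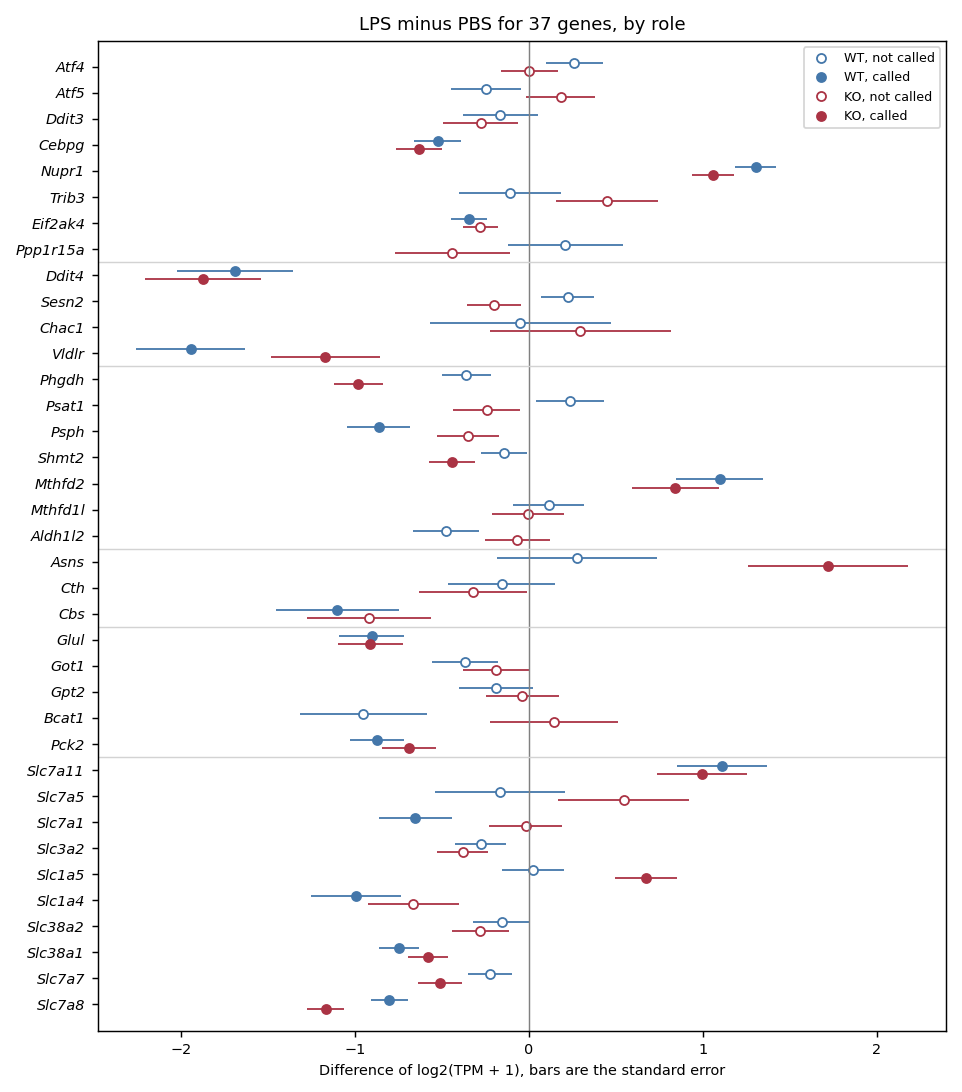
LPS minus PBS difference of log2(TPM + 1) with its standard error for the 37 genes tested, grouped by role, in WT and in KO; filled points are called. Nupr1, Mthfd2 and Slc7a11 are called right of 0 in both genotypes, Asns and Slc1a5 in KO, and Ddit4, Vldlr, Glul, Pck2, Slc38a1, Slc7a8 and Cebpg are called left of 0 in both.

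Among the stress-induced effectors, Ddit4 and Vldlr fell with LPS in both genotypes. Ddit4, also called REDD1, an inhibitor of mTORC1, went from 1040.4, 1410.0 and 684 TPM to 347, 372, 224 and 319.9 TPM in WT, and from 1156, 669 and 868 TPM to 128, 258, 256 and 378 TPM in KO. No LPS library reached the lowest PBS library of its genotype. The differences were -1.69 ± 0.33 (SE; adjusted p = 0.00194) in WT and -1.88 ± 0.33 (SE; adjusted p = 0.00103) in KO. Vldlr, a lipoprotein receptor, went from 12.8, 11.1 and 14.3 TPM to 4.38, 2.85, 1.44 and 2.12 TPM in WT, and from 12.3, 11.7 and 6.89 TPM to 4.96, 5.21, 4.27 and 1.90 TPM in KO. These groups did not overlap either. Its differences were -1.94 in WT (adjusted p = 0.000577) and -1.17 in KO (adjusted p = 0.0115), and the latter was not called without KO_PBS_911 or without KO_PBS_912 (adjusted p = 0.0509 for both). Under LPS the KO to WT difference of Vldlr was 0.46 (adjusted p = 0.585).

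Sesn2, a leucine sensor that restrains mTORC1, was called in no comparison. Under LPS it read 12.5, 12.6, 18.3 and 11.7 TPM in WT and 11.3, 9.17, 9.48 and 7.77 TPM in KO, with all 4 KO values below all 4 WT values (difference -0.49, adjusted p = 0.158). Chac1, which degrades glutathione, was at most 2.28 TPM outside WT_PBS_914, where it stood at 5.33 TPM. Stc2 missed the filter on low values, with at most 0.799 TPM in any library, and was not tested.

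Of the serine and folate-cycle enzymes, Mthfd2 rose with LPS in both genotypes. Mthfd2, a mitochondrial folate dehydrogenase, went from 7.82, 7.36 and 9.42 TPM to 14.2, 15.8, 35.2 and 14.9 TPM in WT, and from 5.52, 6.82 and 5.36 TPM to 11.7, 12.8, 10.7 and 10.3 TPM in KO. All LPS libraries lay above all PBS libraries of their genotype, and KO lay below WT in every library under both treatments. The rise was 1.10 ± 0.25 (SE; adjusted p = 0.0042) in WT and 0.84 ± 0.25 (SE; adjusted p = 0.0197) in KO, and the call in KO was lost without KO_PBS_911 (adjusted p = 0.0604) or without KO_PBS_915 (adjusted p = 0.066). The KO to WT difference of Mthfd2 under LPS was -0.67 (adjusted p = 0.256), and without WT_LPS_3 it was -0.37. Its average over both treatments was -0.54 (adjusted p = 0.121), and -0.39 without WT_LPS_3 (adjusted p = 0.0414).

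Phgdh, the first enzyme of serine synthesis, showed another order from Psat1. It stood at 95.6, 97.2 and 77.2 TPM in WT and at 114, 108 and 110.2 TPM in KO under PBS, with every KO library higher (0.30, adjusted p = 0.359; 0.20 without WT_PBS_914). Under LPS it stood at 88.2, 60.4, 77.6 and 56.3 TPM in WT and at 62.8, 57.2, 49.7 and 53.3 TPM in KO. Phgdh fell with LPS in KO, by -0.98 ± 0.14 (SE; adjusted p = 0.000268), to 50.4% of the PBS mean without overlap. In WT the difference was -0.36 and not called, but it was -0.47 without WT_PBS_914 (adjusted p = 0.032) or without WT_LPS_1 (adjusted p = 0.0124). The interaction of genotype and treatment for Phgdh was -0.62 ± 0.20 (SE), the smallest adjusted p among the listed genes in that test, at 0.443. Psph, the last enzyme of the pathway, fell with LPS in WT from 12.5, 11.4 and 9.25 TPM to 6.66, 5.53, 5.84 and 4.50 TPM (-0.86, adjusted p = 0.0026). It was 6.72, 8.91 and 9.96 TPM in KO under PBS and 7.37, 5.60, 5.32 and 7.58 TPM in KO under LPS, which overlapped. Reads of Psph and Cct6a may mix, as 10.4% of the exon bases of Psph overlap that gene. Shmt2, which passes a carbon from serine to folate, fell in KO from 36.5, 41.8 and 40.8 TPM to 25.5, 30.5, 29.8 and 30.1 TPM (-0.44, adjusted p = 0.02). That call on Shmt2 was lost without KO_LPS_1, KO_PBS_912 or KO_PBS_915 (adjusted p of 0.0523, 0.0764 and 0.0637). Mthfd1l had means of 7.43 to 8.88 TPM and was called in no comparison.

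**Figure D4:**
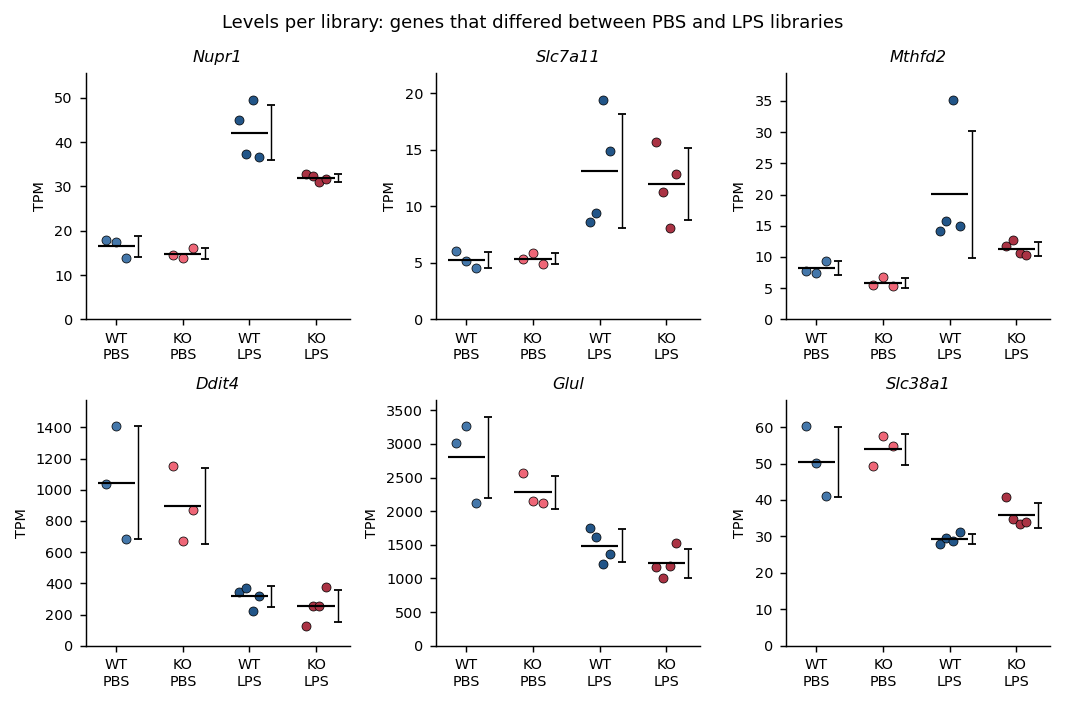
TPM in each library (points) with the group mean (line) and SD (bar) for Nupr1, Slc7a11, Mthfd2, Ddit4, Glul and Slc38a1 in the 4 groups. LPS libraries lie above PBS libraries of the same genotype for Nupr1, Slc7a11 and Mthfd2 and below them for Ddit4, Glul and Slc38a1, without overlap.

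Asns, the asparagine synthetase and a well-known ATF4 target, rose with LPS in KO. It read 0.599, 3.55 and 2.04 TPM in KO under PBS and 8.69, 7.46, 9.83 and 7.14 TPM in KO under LPS, without overlap. Asns there had only 8 to 42 reads a library under PBS and 47 to 182 under LPS. In WT it read 3.14, 4.43 and 15.8 TPM under PBS and 5.48, 6.64, 14.1 and 6.84 TPM under LPS, where WT_PBS_914 and WT_LPS_3 stood apart and the groups overlapped. The KO rise was 1.72 ± 0.46 (SE; adjusted p = 0.0118) and was 1.31 without KO_PBS_911 (adjusted p = 0.0619). The WT difference was 0.27 and not called, and without WT_PBS_914 it was 0.88 (adjusted p = 0.0947), while without WT_LPS_3 it was 0.01. The interaction of 1.44 ± 0.65 (SE; adjusted p = 0.518) was not called and was 0.83 without WT_PBS_914 (adjusted p = 0.699). Under PBS the KO to WT difference of Asns was -1.37 (adjusted p = 0.207), and it was -0.76 without the pituitary-rich library WT_PBS_914. That library also had the highest monocyte and neutrophil marker sum of its group, at 21319 TPM against 5074 and 6931 TPM. The part of those cells in its Asns value was not tested. Cbs, the entry enzyme of transsulfuration, fell with LPS in WT from 10.2, 8.34 and 4.34 TPM to 4.62, 1.85, 1.81 and 3.83 TPM, with 1 library overlapping (-1.10, adjusted p = 0.0248). The adjusted p for Cbs was 0.0638 without WT_LPS_2, 0.0656 without WT_LPS_3, 0.111 without WT_PBS_904 and 0.0811 without WT_PBS_913. Cth, the second enzyme of that path, was at most 1.58 TPM and called nowhere.

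Glul, the glutamine synthetase, had the highest level of the 38 genes. It was 3012, 3269 and 2122 TPM in WT under PBS and 1748, 1622, 1212 and 1365 TPM under LPS. In KO it was 2569, 2148 and 2128 TPM under PBS and 1170.2, 1001, 1191 and 1529 TPM under LPS. All LPS libraries lay below all PBS libraries, and Glul fell by -0.90 ± 0.19 in WT and by -0.91 ± 0.19 in KO (SE; adjusted p = 0.00238 in both). The genotypes overlapped under both treatments. Pck2 also fell with LPS, by -0.87 in WT (adjusted p = 0.00107) and by -0.69 in KO (adjusted p = 0.0044), without overlap in either. The aminotransferase genes Got1, Gpt2 and Bcat1 were called in no comparison over all libraries, though the LPS difference of Bcat1 in WT, -0.95, was called without KO_LPS_4 (-0.95), WT_LPS_1 (-1.14) or WT_PBS_904 (-1.26), with adjusted p of 0.0335, 0.0307 and 0.0289. Bcat1, which starts branched-chain amino acid breakdown, was 1.68, 3.82 and 4.48 TPM in WT and 1.06, 1.02 and 1.87 TPM in KO under PBS, with 1 KO library above the lowest WT library.

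Of the transporters, only Slc7a11 was called higher with LPS in both genotypes. It carries cystine into the cell in exchange for glutamate. Its level went from 6.04, 5.19 and 4.57 TPM to 8.64, 9.44, 19.4 and 14.9 TPM in WT, and from 5.34, 5.87 and 4.86 TPM to 15.7, 11.2, 8.08 and 12.8 TPM in KO. Every LPS library lay above every PBS library, and the genotypes overlapped under both treatments. The rise was 1.11 ± 0.26 (SE; adjusted p = 0.00479) in WT and 1.00 ± 0.26 (SE; adjusted p = 0.00982) in KO. Slc1a5, a glutamine and neutral amino acid exchanger, rose in KO from 8.50, 11.7 and 13.2 TPM to 17.2, 19.0, 17.8 and 18.3 TPM (0.67, adjusted p = 0.0108), and without KO_PBS_911 its difference was 0.51 with an adjusted p of 0.0584. In WT Slc1a5 was 13.8, 15.9 and 15.7 TPM under PBS and 15.5, 17.7, 19.0 and 10.6 TPM under LPS, which overlapped, and its interaction of 0.65 was not called (adjusted p = 0.491).

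Slc7a8 and Slc38a1 fell with LPS in both genotypes. Slc7a8, the LAT2 exchanger of large neutral amino acids, went from 319.9, 309.8 and 241 TPM to 169, 167, 178 and 146 TPM in WT, and from 287, 265 and 275 TPM to 114, 117, 118 and 140.1 TPM in KO. No library overlapped between treatments, and under LPS all KO libraries lay below all WT libraries while under PBS the genotypes overlapped. Slc7a8 fell by -0.80 ± 0.11 (SE; adjusted p = 0.000183) in WT and by -1.17 ± 0.11 (SE; adjusted p = 1.13e-05) in KO. Its KO to WT difference under LPS was -0.43 ± 0.10 (SE; adjusted p = 0.0763), and its interaction was -0.37 (adjusted p = 0.502), neither of them called. Without WT_PBS_914 the interaction of Slc7a8 was -0.24, while its KO to WT difference was called under LPS (-0.43, adjusted p = 0.0404) and in the average (-0.31, adjusted p = 0.0257, against -0.25 and 0.0989 over all libraries). Slc38a1, a sodium-coupled glutamine carrier, went from 60.3, 50.2 and 41.0 TPM to 27.9, 29.6, 28.7 and 31.1 TPM in WT, and from 49.2, 57.6 and 54.8 TPM to 40.7, 34.9, 33.4 and 34.0 TPM in KO. Slc38a1 fell by -0.75 in WT (adjusted p = 0.000465) and by -0.58 in KO (adjusted p = 0.00213), and under LPS it was the only listed gene higher in every KO than in every WT library (0.27, adjusted p = 0.337).

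Slc7a5 and Slc7a1 had lower means in KO than in WT under PBS, and neither difference was called. Slc7a5, the LAT1 carrier of leucine, measured 184, 267 and 154 TPM in WT and 85.9, 91.7 and 156 TPM in KO under PBS. Under LPS it measured 272, 216, 116 and 137 TPM in WT and 219, 78.9, 204 and 170.1 TPM in KO. KO_PBS_911 and KO_PBS_912 were the low pair under PBS, 1 KO library overlapped, and the difference of -0.87 was not called (adjusted p = 0.317). Endothelial cells also carry Slc7a5 and Slc7a1, and the PBS sums of endothelial and mural markers given above ran the same way, lowest in KO_PBS_911 and KO_PBS_912; their part was not tested. Slc7a1, the cationic amino acid carrier, was 24.7, 34.4 and 27.4 TPM in WT and 14.7, 16.3 and 23.6 TPM in KO under PBS, with no overlap and a difference of -0.65 that was not called (adjusted p = 0.187). With LPS Slc7a1 went to 20.8, 18.9, 17.1 and 14.9 TPM in WT (-0.65, adjusted p = 0.0239), and its adjusted p was 0.0628 without WT_LPS_4 and 0.104 without WT_PBS_913. In KO under LPS it was 23.7, 13.5, 20.7 and 14.3 TPM, which overlapped with PBS.

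Slc7a7, the y+LAT1 exchanger of arginine and neutral amino acids, stood at 134, 137 and 99.0 TPM in WT and at 139, 124 and 141 TPM in KO under PBS. Under LPS it stood at 111, 104, 112 and 92.7 TPM in WT and at 91.1, 96.9, 80.9 and 111 TPM in KO. The fall in KO of -0.51 ± 0.13 was called (SE; adjusted p = 0.00746) without overlap, and the difference of -0.22 in WT was not, but without WT_PBS_914 it was -0.37 (adjusted p = 0.0247). Part of Slc7a7, 7.0% of its exon bases, overlaps Oxa1l. Slc1a4, a carrier of alanine, serine and cysteine, fell with LPS in WT from 25.5, 19.6 and 20.5 TPM to 12.9, 10.4, 11.5 and 7.54 TPM (-1.0, adjusted p = 0.00872). In KO Slc1a4 went from a mean of 17.3 to 11.2 TPM without a call and without overlap, and it was called without KO_LPS_1 or without KO_LPS_3 (-0.79 for both, adjusted p = 0.0426 and 0.0411). Slc3a2, the heavy chain that carries several of these exchangers to the membrane (group means of 253 to 341 TPM) and Slc38a2, a glutamine carrier induced by amino acid lack (129 to 158 TPM), were called in no comparison over all libraries. Without WT_PBS_914 the LPS differences of Slc3a2 were called, at -0.47 in WT (adjusted p = 0.0127) and -0.38 in KO (adjusted p = 0.0198).

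**Figure D5:**
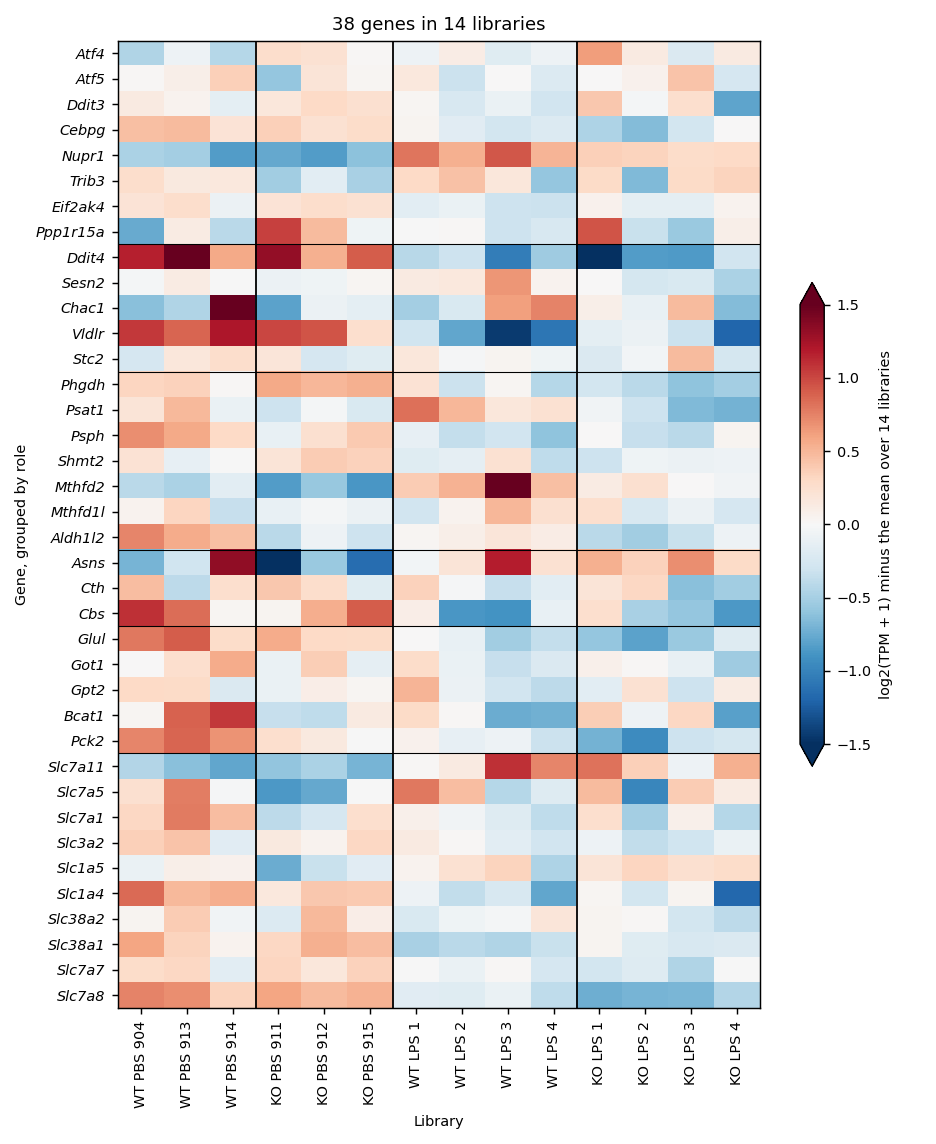
Level of each of the 38 genes in each of the 14 libraries, as log2(TPM + 1) minus the gene's mean over all libraries, with genes grouped by role and the colour scale limited to 1.5 in either direction. Ddit4, Vldlr, Glul and Slc7a8 are higher in the 6 PBS libraries, Nupr1 and Slc7a11 are higher in the 8 LPS libraries, and Asns is highest in WT_PBS_914 and WT_LPS_3.

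No listed gene was called in the interaction by limma, where 0% of all genes tested were called, 4 of the 37 had an unadjusted p under 0.05 beside 9.51% of all genes, and the limma-voom test on recovered reads also called 0. The smallest adjusted p values were, among negative terms, those of Phgdh (0.443), Slc7a8 (0.502) and Sesn2 (-0.42, 0.559), and, among positive terms, those of Slc1a5 (0.491), Asns (0.518) and Slc7a1 (0.64, 0.527). The difference between the genotypes in their LPS response was therefore not called for Asns, Phgdh, Slc1a5 or any of the genes called in only 1 genotype. As all PBS libraries were male and all LPS libraries female by Ddx3y and Xist, this interaction cannot be told apart from one of genotype and sex.

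A further 84 tested genes of the same pathways, not on the list, gave the surroundings. By genotype limma called 0 of the 84 under PBS and 0 under LPS, with 15 at an unadjusted p under 0.05 in each, beside 15.7% of all genes under PBS and 11.7% under LPS. In the average over both treatments, where 3.94% of all genes tested were called, the y+LAT2 exchanger Slc7a6 (0.40, adjusted p = 0.00742) and the lysosomal peptide carrier Slc15a3 (0.54, adjusted p = 0.0288) rose, and Sesn1 fell (-0.50, adjusted p = 0.0422). The call on Slc7a6 stayed in each of the 23 alternatives, while that on Slc15a3 was lost in 13 and that on Sesn1 in 12.

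With LPS, 34 of the 84 were called in WT (8 higher and 26 lower) and 33 in KO (4 higher and 29 lower), beside 42% and 34.7% of all genes. The C/EBP factor Cebpb, a partner of ATF4, had the largest rise among them, from a mean of 20.8 to 307 TPM in WT (3.77, adjusted p = 1.48e-06) and from 37.4 to 285 TPM in KO (2.89, adjusted p = 1.09e-05). The aromatic amino acid carrier Slc16a10 rose by 1.03 in WT and 0.76 in KO, with adjusted p of 0.000254 and 0.00145. Eif4ebp1, the translation repressor 4E-BP1 and an ATF4 target, rose by 0.97 in WT (adjusted p = 0.000988) and by 0.58 in KO (adjusted p = 0.0201; 0.0934 without KO_PBS_912). Xpot, which exports tRNA, fell by -0.71 and -0.86 in WT and KO, and Gclc, which starts glutathione synthesis, by -0.78 and -0.74. Of 20 aminoacyl-tRNA synthetase genes, 7 were called in WT, with Vars higher and 6 lower, and 11 were called in KO, all lower. The median over the 20 synthetases was -0.18 in WT and -0.31 in KO, beside -0.28 and -0.22 over all genes. These calls depended on scaling for several of them: after median-of-ratios scaling Nars was -0.10 in WT and -0.26 in KO, Yars was -0.02 and -0.24, and Dars was -0.02 and -0.13, none of them called.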

How the data were processed

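Total RNA of 14 mouse microglia libraries was sequenced. The authors deposited 1 table of TPM values per Ensembl gene; per the submitters' processing notes, the tools were STAR 2.7.10b, featureCounts 2.0.1, cutadapt 4.4 and FastQC 0.11.9, and the notes name hg38 although the gene IDs are mouse. Strand setting and annotation are not given in the sources used here. Of 41739 gene IDs, 41588 matched a symbol. TPM hides depth, so reads were recovered with gene lengths from GENCODE M21: 98.3 to 98.4% of positive values came out whole within 0.02 reads, in 41189 of 41588 genes for every library, and for 37 of the 38 listed genes (not Glul).

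Genes with at least 1 TPM in at least 3 libraries were fitted with limma 3.58.1 (R 4.3.3) on log2(TPM + 1), with 4 group means, a mean-variance trend and Benjamini-Hochberg adjustment over all 18724 genes. A fold change on this scale understates the change of low genes. The script was tested on simulated data. Whether each library is a separate animal is not in the labels; the p-values then reflect the spread among these libraries alone, which may be technical. The listed genes, the other pathway genes and the tests were chosen with earlier results of these data known. Values in every library are given for genes called by genotype, for up to 8 called genes per direction with the largest LPS change, and for Atf4, Asns, Ddit3, Slc7a11, Slc7a5, Slc7a7 and Slc7a8; where no gene was called, up to 3 per direction with the smallest p are given. Other genes were given for their role and were chosen after their values were seen. Alternatives changed the pseudocount (0.1, 5), the filter (TPM 5, none), the scaling, the groups fitted, the weights and the libraries, and ran voom on recovered reads. Of the other pathway genes called in the average over both treatments, not all are reported here.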

Additional observations from a re-analysis of the deposited data

Results flagged for a closer look

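Each of the 38 listed genes was checked in the 2 LPS groups of 4 libraries (the PBS groups of 3 are too small for this check) for a library whose distance to its nearest neighbour, as a share of the group's range, passed Dixon's critical value. Of 76 gene and group pairs 6 passed, and chance alone passes about 1 in 20. WT_LPS_3 holds 3 of them: it was the highest of its group for Mthfd2 at 35.2 TPM (others 14.2 to 15.8 TPM), for Asns at 14.1 TPM (others 5.48 to 6.84 TPM) and for Sesn2 at 18.3 TPM (others 11.7 to 12.6 TPM). That library also had the highest monocyte and neutrophil marker sum of its group, at 20633 TPM, most of it S100a8 and S100a9 (7116 and 11581 TPM). These 2 genes, Ly6c2, Ccr2 and Plac8 were highest there, whereas Ngp and Camp were lowest of the group (649 and 130 TPM) and Ly6g lay between. The part of those cells in the Mthfd2, Asns and Sesn2 values was not tested. In KO under LPS, Trib3 was lowest in library 2 at 0.781 TPM (others 2.42 to 2.54 TPM) and Shmt2 was lowest in library 1 at 25.5 TPM (others 29.8 to 30.5 TPM). Slc7a8 was highest in KO_LPS_4 at 140.1 TPM (others 114 to 118 TPM). That library has the fewest reads of all, and Slc7a8 had 1687 to 4008 reads a library in KO under LPS. KO_LPS_4 also had the highest microglia marker sum of its group, at 25361 TPM against 18817 to 21385 TPM. The part of either in its Slc7a8 value was not tested.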

How the results depend on the processing

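No listed call changed direction under any alternative. Listed genes called by genotype under PBS, 0 as reported, numbered 2 with library weights, 2 with voom on recovered reads and 1 with the compared groups fitted alone. Under LPS, 0 as reported, they numbered 1 with a filter at TPM 5 and 2 each with median-of-ratios scaling, with Gm23935 removed, with library weights and with voom. The average over both treatments called 6 with library weights (Aldh1l2, Glul, Nupr1, Pck2, Psat1 and Slc7a8) in place of 3. The cause was not tested. Leaving out 1 library at a time gave 0 to 1 calls under PBS, 0 to 1 under LPS, 1 to 4 in the average, 12 to 18 for LPS in WT, 12 to 18 for LPS in KO and 0 to 0 in the interaction. The LPS libraries share numbers 1 to 4 across genotypes, but same-numbered libraries did not deviate together (correlations of 0.06, -0.06, -0.09 and -0.03) and not every library correlated best with its own number; with the replicate number as a block, 0 listed genes were called by genotype under LPS. Depth limits Aldh1l2, Asns, Bcat1, Chac1, Cth, Stc2 and Trib3 most. Asns had 8 to 42 reads a library in KO under PBS, and Bcat1 had 11 to 141 in KO under LPS. With 3 or 4 libraries a group, genotype differences of the sizes seen in Atf4 or Asns could not be told from the spread between libraries. LPS differences carry with them the sex of the mice, the share of Gm23935 and any difference in preparation of the libraries.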
